A study of Mus musculus with 22 samples.

Results

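The cytosolic and mitochondrial heat shock chaperones form a family of 10 genes that was followed in mouse lung after exposure to Mitsui7, a multiwalled carbon nanotube (MWCNT). The members are Hspa1a, Hspa1b, Hspa8, Hsph1, Dnajb1, Bag3, Hsp90aa1, Hspb1, Hspd1 and Hspe1. They were found through the RefSeq accession that the array file gives for each probe. Of the 10 genes, 9 had at least 1 probe and Hspa1b had none. The 9 genes were read by 14 probes out of 55681 on the array, and all 14 probes were expressed above background. For comparison, 20018 gene names were found on the array, and 16426 of these were expressed.

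Lung RNA came from 22 female C57BL/6 mice aged 8 weeks, taken 24 hours after a single intratracheal instillation. The vehicle controls (5 mice) received saline that contained mouse lavage fluid, and the treated mice received 18 µg (6 mice), 54 µg (5 mice) or 162 µg (6 mice) of Mitsui7 in the same medium. The RNA is that of whole right lung lobes, so it mixes all cell types of the lung. On each array, lung RNA labelled with Cy5 was hybridized together with a reference RNA pooled from mouse cell lines and labelled with Cy3, and the dyes were not exchanged. A level is therefore the log2 ratio of lung to reference after loess normalization, and a negative level means that the gene was lower in lung than in the reference. A difference is a log2 fold change estimated in limma with dose and slide in the model. A gene was called when its Benjamini-Hochberg p-value, adjusted over every probe of the array, was at most 0.05, the change was at least 1.5-fold and the probe was expressed. The 3 dose groups share the same 5 controls.

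Heat shock proteins are molecular chaperones that help proteins to fold, keep damaged proteins from aggregating and pass them on for refolding or degradation. HSP70 proteins bind short hydrophobic stretches of unfolded clients in a cycle driven by ATP. HSP40 proteins start this cycle, and HSP110 and BAG proteins release the nucleotide. HSP90 proteins finish the folding of signalling proteins such as kinases and steroid receptors, while small heat shock proteins hold unfolded clients without using ATP. Inside mitochondria, HSP60 and HSP10 form a folding chamber. Most of these genes are switched on by heat shock factor 1 (HSF1) when proteins unfold, and the factor binds to repeats of the pentamer nGAAn, called heat shock elements.

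The letters of such elements can be read in the promoters of the members. RefSeq promoters (build GRCm38, 250 bases before to 50 bases after each start site) were matched by symbol for 8 of the 10 members, with 11 sequences in all. Hspa8 and Hsp90aa1 had no sequence in the table used. A motif of 3 alternating pentamers, GAANNTTCNNGAA on either strand, was present in Hsph1, Hspd1 and Hspe1, and in 0.662% of the 27025 genes in the table, counted like the members over all start sites of a gene. The shorter motif GAANNTTC, which lies within the longer one, was present in 7 of the 8 members and in 9.04% of all genes. The other arrangement, TTCNNGAA, was present in 3 of the 8 members and in 9.60% of all genes, CCAAT in 5 and in 41.1%, and TATAAA in 0 and in 15.7%. The shorter motifs may overlap one another and the longer one, and each match describes letters and not a bound site. The promoters below are those of the member that changed most at 162 µg (Hsph1), of a mitochondrial member whose promoter is shared (Hspe1), of the member that was higher at 162 µg (Hspb1), of the inducible HSP70 (Hspa1a), and of an HSP90 cochaperone outside the members with 3 overlapping copies of the longer motif (Chordc1). Capitals mark the longer motif where it is present and otherwise GAANNTTC, and each sequence runs 5′ to 3′ on the strand of the gene.
Hsph1 (chr5:149636266-149636565, minus strand): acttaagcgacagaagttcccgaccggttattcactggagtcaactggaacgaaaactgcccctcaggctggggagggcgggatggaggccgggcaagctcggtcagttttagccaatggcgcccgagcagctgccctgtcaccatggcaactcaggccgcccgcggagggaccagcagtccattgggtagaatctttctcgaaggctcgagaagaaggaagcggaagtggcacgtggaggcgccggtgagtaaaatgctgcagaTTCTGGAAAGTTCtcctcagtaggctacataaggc
Hspe1 (chr1:55087898-55088197, plus strand): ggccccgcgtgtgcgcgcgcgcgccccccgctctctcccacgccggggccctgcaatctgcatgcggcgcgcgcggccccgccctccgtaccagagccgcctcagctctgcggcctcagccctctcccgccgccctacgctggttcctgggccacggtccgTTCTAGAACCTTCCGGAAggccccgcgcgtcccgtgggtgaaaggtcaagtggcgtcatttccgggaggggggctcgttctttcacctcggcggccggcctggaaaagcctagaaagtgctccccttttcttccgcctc
Hspb1 (chr5:135887669-135887968, plus strand): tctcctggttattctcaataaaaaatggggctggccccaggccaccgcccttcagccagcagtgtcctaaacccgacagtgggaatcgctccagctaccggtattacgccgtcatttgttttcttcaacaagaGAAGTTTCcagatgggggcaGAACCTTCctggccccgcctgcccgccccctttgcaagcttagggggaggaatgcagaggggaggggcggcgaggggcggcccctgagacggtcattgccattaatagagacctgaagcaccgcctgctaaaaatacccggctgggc
Hspa1a (chr17:34972107-34972406, minus strand): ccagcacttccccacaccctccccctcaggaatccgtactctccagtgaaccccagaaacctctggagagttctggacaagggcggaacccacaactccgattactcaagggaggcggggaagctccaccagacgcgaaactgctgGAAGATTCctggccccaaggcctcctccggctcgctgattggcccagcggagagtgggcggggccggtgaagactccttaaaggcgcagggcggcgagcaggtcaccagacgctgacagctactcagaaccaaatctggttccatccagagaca
Chordc1 (chr9:18292017-18292316, plus strand): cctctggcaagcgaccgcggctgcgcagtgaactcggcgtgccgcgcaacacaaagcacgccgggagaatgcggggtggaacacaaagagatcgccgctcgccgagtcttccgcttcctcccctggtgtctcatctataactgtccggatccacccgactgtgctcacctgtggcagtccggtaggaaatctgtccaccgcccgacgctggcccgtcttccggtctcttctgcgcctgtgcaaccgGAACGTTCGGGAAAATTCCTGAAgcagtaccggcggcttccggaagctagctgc

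In Hsph1 the longer motif begins 15 bases after this start site. The RefSeq table has a further start site for Hsph1, from which the same letters begin 36 bases downstream. In Hspe1 it begins at position -89 relative to the start site. Hspd1 and Hspe1 are transcribed away from each other, and their promoter windows share 285 bases (chr1:55087898-55088182), so the capitals printed for Hspe1 are also those of Hspd1 on the opposite strand. Hspa1a and Hspa1b are neighbouring copies, and 296 of the 300 bases of their promoters are identical. The dnaJ homolog Dnajb1 held none of the 3 heat shock motifs in either of its promoter windows.

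Each of the 7 slides carried 3 or 4 arrays, and no control was present on 2 of them. The median Cy5 signal over local background lay between 1.52 and 2.05 in controls, between 1.24 and 2.11 at 18 µg, between 1.37 and 2.07 at 54 µg and between 1.18 and 2.50 at 162 µg. The lowest share of probes above background was 70.4% in controls and 56.8%, 57% and 50.3% at 18, 54 and 162 µg. On the array with 50.3%, 162 µg replicate 4, 2619 spots were left out as outliers. On that with 57%, 54 µg replicate 3, 1914 were left out. Both arrays lay on slide 3, which carried no control. No member spot was saturated, and the number of arrays limits the precision. Each array is a separate mouse by the labels. Markers of the lung were expressed, including Sftpc and Sftpb of type II cells, Ager of type I cells, Scgb1a1 of club cells and Pecam1 of endothelium. Replicate 1 at 54 µg stood furthest from its group among the members, and the members' values at 54 µg are given with and without it. Replicate 6 at 18 µg had the lowest mean of the members in its group (-0.37, against -0.0014 to 0.20 in the other 5 lungs).

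At the highest dose the chaperone genes were lower than in controls or not called, and no member was called higher at any dose. At 162 µg, 2 of the 9 expressed members were called, Hsph1 and Hsp90aa1, and both were lower. In this comparison 6.87% of the 16426 expressed genes were called, 3.53% lower and 3.34% higher. The log2 fold change was negative for 8 of the 9 members, with a median of -0.37 (range -1.70 to 0.40), against a median of -0.01 over all expressed genes. At 18 µg, 0 members were called in limma and 0 had an unadjusted p under 0.05. Of all 16426 expressed genes, 2.08% were called and 3668 had an unadjusted p under 0.05. The members' median at 18 µg was 0.02 (range -0.21 to 0.36). At 54 µg, 0 members were called and 1, Hsph1, had an unadjusted p under 0.05. Of all 16426 expressed genes, 0.39% were called and 2282 had an unadjusted p under 0.05. The median at 54 µg was -0.05 (range -0.83 to 0.32). With 54 µg replicate 1 left out the median was -0.25, with values of -0.25 for Hspa1a, -0.29 for Hspa8, -0.10 for Dnajb1, 0.04 for Bag3, -0.21 for Hspb1, -0.31 for Hspd1 and 0.17 for Hspe1 beside those of Hsph1 and Hsp90aa1 given further on, and 0 members were called. With 18 µg replicate 6 left out the median at 18 µg was 0.09, and again 0 members were called.

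**Figure D1:**
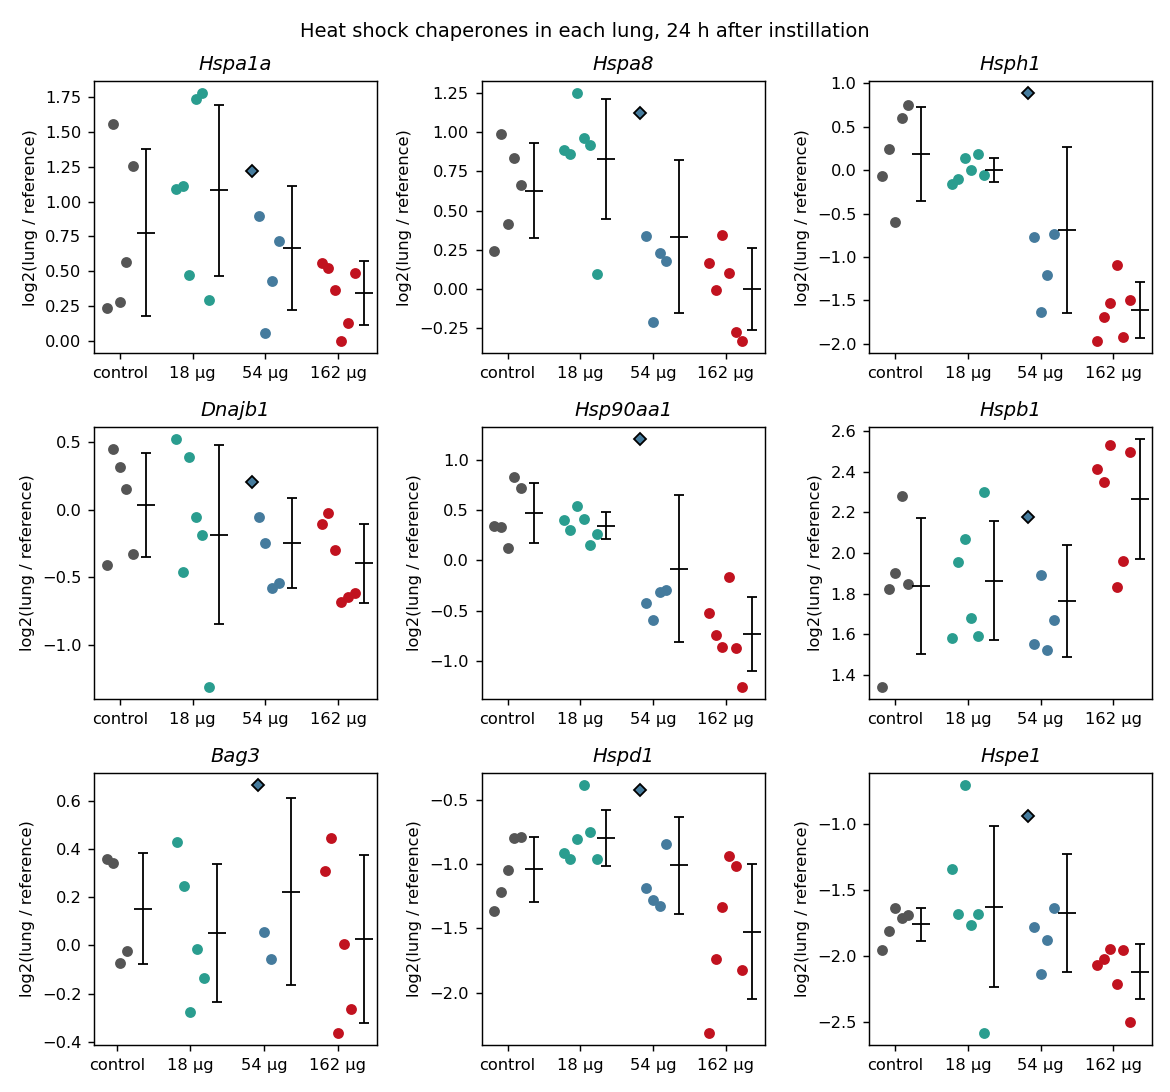
Level of the 9 expressed members in each lung by dose group, as log2 ratio of lung to reference on the brightest probe. Points are mice, the diamond is replicate 1 at 54 µg, and horizontal marks with bars are group means with 1 SD. The 6 lungs at 162 µg lie below all 5 controls for Hsph1 and Hsp90aa1.

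The HSP110 protein Hsph1 releases nucleotide from HSP70 and helps it to dissolve aggregates. In control lungs its log2 ratio was -0.07, 0.24, -0.60, 0.60 and 0.75. At 18 µg it lay between -0.16 and 0.18 (median -0.03), within the range of the controls. At 54 µg the values were 0.88, -0.77, -1.63, -1.21 and -0.73, so that 4 of 5 lungs lay below all controls and replicate 1 lay above them. At 162 µg it lay between -1.97 and -1.09 (median -1.61), below every control in 6 of 6 lungs. Such a full separation on the lower side was found for 4.43% of expressed genes at 162 µg. The fold change of Hsph1 at 162 µg was -1.70 (SE 0.33, limma adjusted p = 0.00519), or 3.25-fold lower. The second probe of Hsph1 gave -1.64 (SE 0.37, adjusted p = 0.013) and was also called. Among the alternatives without a replicate block, the call on the brightest probe was lost without normalization, where the estimate was -1.91. At 54 µg the estimate was -0.83 (SE 0.35, limma adjusted p = 0.496). Without replicate 1 it was -1.34 (limma adjusted p = 0.0675), still not called.

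Hsp90aa1 encodes the inducible cytosolic HSP90. Its log2 ratio was 0.34, 0.33, 0.12, 0.83 and 0.72 in controls, and between 0.16 and 0.54 (median 0.35) at 18 µg. All lungs at 18 µg lay within the range of the controls. At 54 µg the values were 1.20, -0.42, -0.59, -0.31 and -0.29, with 4 lungs below all controls and replicate 1 above all of them. At 162 µg the ratio lay between -1.25 and -0.16 (median -0.80), below every control in 6 of 6 lungs. As given for Hsph1, such a full separation was found for 4.43% of expressed genes. The fold change was -1.08 (SE 0.24, limma adjusted p = 0.0119), or 2.11-fold lower. Among the alternatives without a replicate block, the call was lost when control replicate 5 was left out (-0.94), with median centring (-1.29), without normalization (-1.31) and with the Cy5 channel alone (-0.72). At 54 µg the estimate was -0.46 (limma adjusted p = 0.669) with all lungs and -0.83 (limma adjusted p = 0.133) without replicate 1.

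**Figure D2:**
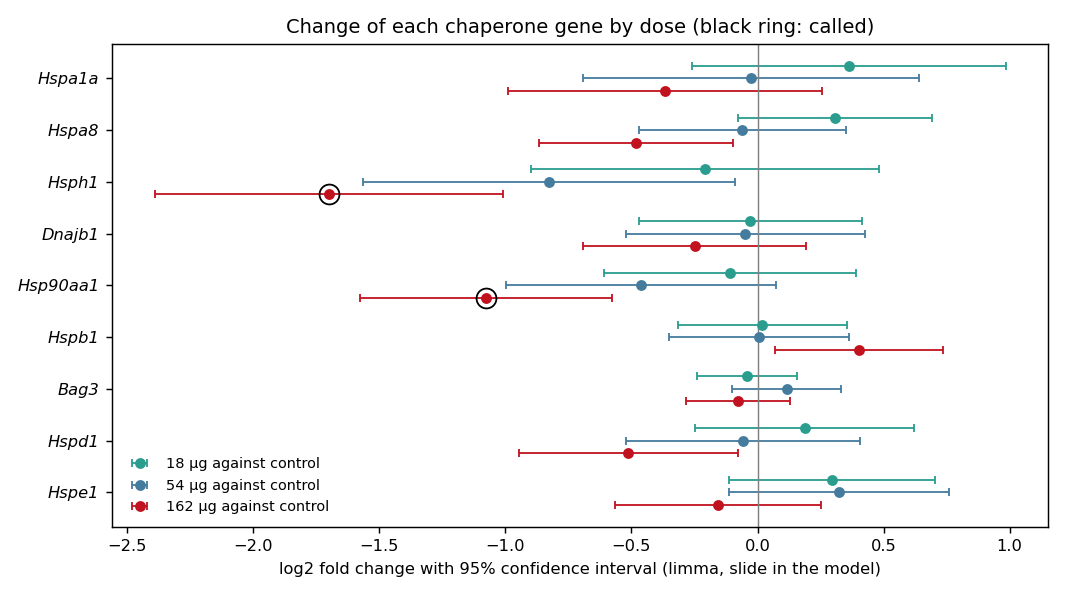
Log2 fold change of each member against the shared controls at 18, 54 and 162 µg, with 95% confidence intervals from limma. Black rings mark the called changes, which are those of Hsph1 and Hsp90aa1 at 162 µg.

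Hspa8, the constitutive HSP70 of the cytosol, was not called against controls. Its log2 ratio was 0.24, 0.99, 0.41, 0.83 and 0.66 in controls and lay between 0.10 and 1.25 (median 0.90) at 18 µg. At 54 µg the values were 1.12, 0.34, -0.21, 0.23 and 0.18, and at 162 µg they lay between -0.33 and 0.35 (median 0.05). At 162 µg, 5 of 6 lungs were below all controls, and the fold change was -0.48 (SE 0.18, limma adjusted p = 0.15). The 3 probes of Hspa8 did not give the same value at 162 µg. The second gave -0.54 with 6 of 6 lungs below the 4 controls that had a value, and the third gave 0.16 after adjustment for slide, although its mean log2 ratio was -0.99 at 162 µg and -0.80 in controls.

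For the remaining HSP70 system no change was called. The stress-inducible Hspa1a, whose single probe may also bind the near-identical Hspa1b transcript, ranged widely, from 0.23 to 1.56 in controls and from 0.29 to 1.78 at 18 µg. At 162 µg it lay between -0.0017 and 0.56, a fold change of -0.37 (95% confidence interval -0.99 to 0.25), with 2 of 6 lungs below all controls. Dnajb1, the HSP40 that delivers clients to HSP70, had a fold change of -0.25 (95% confidence interval -0.69 to 0.19) at 162 µg. Bag3, a nucleotide exchange factor that links HSP70 clients to autophagy, had values on 4 control arrays and on 5, 3 and 5 arrays at the rising doses, because the other spots were marked as outliers. Its fold changes were -0.04, 0.12 and -0.08, and the 95% confidence interval at 162 µg ran from -0.28 to 0.13.

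Hspb1, the small heat shock protein HSP25, was the one member with a positive fold change at 162 µg. Its log2 ratio was 1.34, 1.82, 1.90, 2.28 and 1.85 in controls and lay between 1.83 and 2.53 (median 2.38) at 162 µg. Of the 6 lungs, 4 were above all controls, and the fold change was 0.40 (SE 0.16, limma adjusted p = 0.17), which was not called. At 18 and 54 µg it was 0.02 and 0.01.

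The mitochondrial pair was not called against controls. Hspd1, the subunit of the HSP60 chamber, had log2 ratios of -1.36, -1.21, -1.04, -0.80 and -0.79 in controls and lay between -2.31 and -0.94 (median -1.53) at 162 µg. The groups overlapped, with 3 of 6 lungs below all controls, and the fold change was -0.51 (SE 0.21, limma adjusted p = 0.183). Its partner Hspe1, the HSP10 lid, lay between -1.95 and -1.64 in controls and between -2.50 and -1.95 at 162 µg. Of the 6 lungs, 5 were below all controls on the brightest probe, while the slide-adjusted fold change was -0.16 (SE 0.19, limma adjusted p = 0.783). The other probes of Hspe1 gave -0.13 and -0.16.

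Differences between the doses were tested in the same model. Between 162 and 18 µg, 4 of the 9 members were called lower, against 4.99% of all expressed genes called in either direction and 1.65% called lower. These were Hsph1 (-1.49, SE 0.31, limma adjusted p = 0.00945), Hsp90aa1 (-0.97, SE 0.22, limma adjusted p = 0.0187), Hspa8 (-0.79, SE 0.17, limma adjusted p = 0.0132) and Hspd1 (-0.70, SE 0.19, limma adjusted p = 0.0494). For Hsph1 and Hsp90aa1 all 6 lungs at 162 µg lay below all 6 at 18 µg, for Hspd1 5 of 6 did and for Hspa8 3 of 6 did. How many of all expressed genes separate in this way between these doses was not counted. The number of members called fell to 2 when 18 µg replicate 3, 4 or 6 or 162 µg replicate 3 was left out. It fell to 0 with median centring or without normalization. Between 162 and 54 µg, 0 members were called in limma and 6 had an unadjusted p under 0.05. Of all 16426 expressed genes, 0% were called and 2042 had an unadjusted p under 0.05. Between 54 and 18 µg, 0 members were called and 0 had an unadjusted p under 0.05. Of all 16426 expressed genes, 0.0304% were called and 2474 had an unadjusted p under 0.05.

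On 4 slides a lung at 162 µg could be set against the control of the same slide. The difference in log2 ratio was negative on 4 of 4 slides for Hspa8, Hsph1, Dnajb1, Hsp90aa1, Hspd1 and Hspe1. It ranged from -2.67 to -1.09 for Hsph1, from -1.69 to -0.85 for Hsp90aa1 and from -0.93 to -0.42 for Hspa8. For Hspb1 it was positive on 4 of 4 slides, from 0.12 to 0.59. At 54 µg there were 3 such slides, and on slide 1, which holds replicate 1, the differences were positive for all 9 members. The control of slide 1 had the lowest mean of the members among the controls (-0.28). Against it the 18 µg lung of that slide was also positive for every member except Hsph1 (-0.09).

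**Figure D3:**
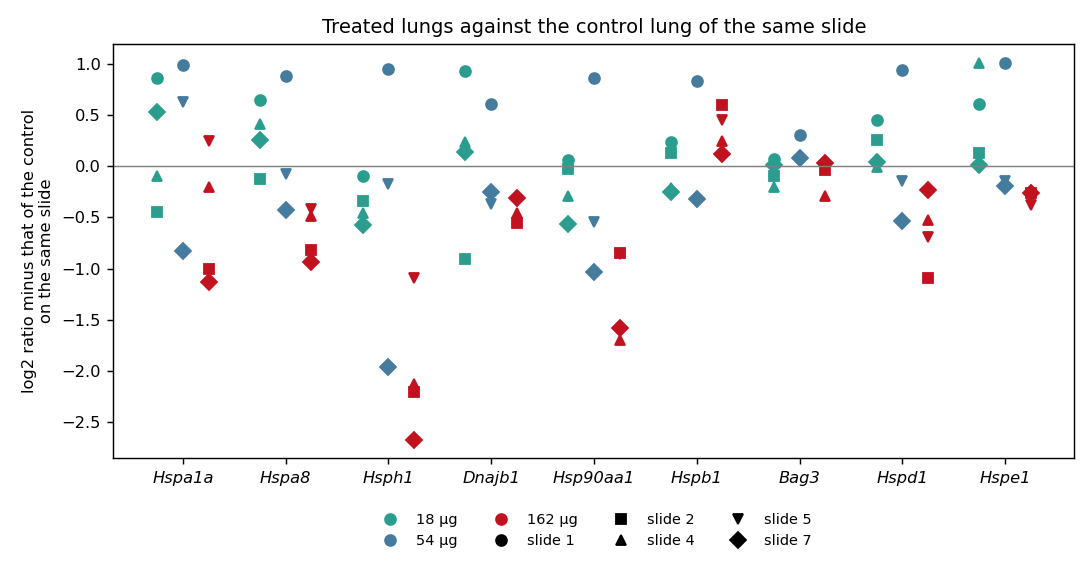
Log2 ratio of each treated lung minus that of the control on the same slide, by member gene. Colours are doses and symbols are slides, and the 162 µg values of Hsph1 and Hsp90aa1 all lie below 0, while the circles of the 54 µg lung on slide 1 all lie above 0.

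The member genes moved together in part. Each of the 9 members was centred on its mean over the 22 arrays, and the mean of the members was then set relative to its mean in controls. It was between -0.28 and 0.16 in controls, between -0.37 and 0.20 at 18 µg and between -0.73 and -0.46 at 162 µg. At 54 µg it was 0.54 in replicate 1 and between -0.64 and -0.30 in the other 4 lungs. The correlation between pairs of members over the 22 arrays had a median of 0.40 (range -0.37 to 0.93, 36 pairs), and 0.30 after the group means were taken out. These points share arrays, slides and a reference RNA.

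Of genes outside the members and the chaperone lists, the 6 whose levels followed the mean of the members most closely over the 22 arrays, among 15001 genes compared, were Fam114a1 (r = 0.88), Mkks (r = 0.86), Haus8 (r = 0.86), Gm15455 (r = 0.85), Magt1 (r = 0.85) and Mrps6 (r = 0.84). Mkks encodes a protein related to the chaperonins of the cytosol. Within the lists, the highest were Dnaja1, an HSP40 protein (r = 0.90), and Pdia6 of the endoplasmic reticulum list (r = 0.87).

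The transcription factors of the family were not called at any dose, beside 2.08%, 0.39% and 6.87% of all expressed genes at the rising doses. Hsf1 had fold changes of 0.18, -0.16 and -0.12 at 18, 54 and 162 µg, with a 95% confidence interval of -0.45 to 0.21 at the highest dose. Hsf2 had 0.05, -0.10 and -0.23.

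The wider network of cytosolic and mitochondrial chaperones and genes linked to them was followed in lists of 81 genes, of which 79 were expressed. The lists also hold the heat shock factors and other targets of HSF1. Serpinh1 and Hspb11, which are not cytosolic or mitochondrial chaperones, are counted in them and are among the lower calls. At 162 µg, 9 of the 79 were called lower and 3 higher, with a median log2 fold change of 0.02, while 3.53% of all expressed genes were called lower and 3.34% higher. The number called at 162 µg lay between 8 and 15 with single lungs left out and between 0 (without normalization) and 19 (only the 2 groups compared) under the other alternatives. It was 4 with median centring and 7 with the Cy5 channel alone. At 18 µg, 2 were called lower and 0 higher, beside 2.08% of all expressed genes called in either direction. This number was 0 without control replicate 1 or 5 or 18 µg replicate 5, 1 without 18 µg replicate 1, and 3 without control replicate 2, 54 µg replicate 5 or 162 µg replicate 6, and it lay between 0 and 4 under the other alternatives. At 54 µg, 0 were called in limma, beside 0.39% of all expressed genes. An unadjusted p under 0.05 was found for 13 of the 79, 7 lower and 6 higher, and for 2282 of the 16426 expressed genes. The number at 54 µg was 1 without 54 µg replicate 1, 3 without 54 µg replicate 5 and between 0 and 2 under the alternatives that kept all lungs.

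Among the relatives of HSP70 and HSP110, Hspa4l, an HSP110 protein best known from testis, had log2 ratios between 0.85 and 1.28 in controls and between -1.25 and 0.11 at 162 µg. All 6 lungs were below the controls, a full separation on the lower side that was found for 4.43% of expressed genes. The fold change was -1.30 (limma adjusted p = 0.000924). Hspa2, an HSP70 protein of germ cells, changed by -1.01 (limma adjusted p = 0.00193) at 162 µg and by -0.83 (limma adjusted p = 0.0257) at 18 µg, where the call was lost under 9 of 36 alternatives. For Hspa4 the probes disagreed, with 0.60 (limma adjusted p = 0.038) on the brightest and calls in the lower direction on the other 2, down to -1.25. The HSP40 protein Dnaja4 changed by -1.02 (limma adjusted p = 0.00533) at 162 µg, on 5 arrays with a value. Its other probe gave -0.41 (limma adjusted p = 0.0711) and was not called.

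Among 12 HSP90 proteins and cochaperones, 3 were called lower and 1 higher at 162 µg, with a median of -0.50. In this comparison 3.53% of all expressed genes were called lower and 3.34% higher. Hsp90ab1, the constitutive HSP90, had log2 ratios between 0.36 and 0.54 in controls and between -0.82 and -0.11 at 162 µg. The change was -0.93 (limma adjusted p = 0.0119). Below the controls lay 6 of 6 lungs, a full separation on the lower side found for 4.43% of expressed genes. The cochaperone Chordc1, whose promoter is printed above, changed by -0.78 (limma adjusted p = 0.00409), and Cacybp by -0.59 (limma adjusted p = 0.0451), a call lost under 23 of 36 alternatives. Fkbp5, an HSP90 cochaperone that is also a classical target of the glucocorticoid receptor, lay between -2.06 and 0.20 in controls and between 0.86 and 1.53 at 162 µg. It was 4.87-fold higher (2.28, limma adjusted p = 0.00111). All 6 lungs lay above the 5 controls, a full separation on the higher side that was found for 3.69% of expressed genes.

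Of the other small heat shock proteins, Cryaa changed by -1.18 (limma adjusted p = 0.000877) at 162 µg and by -0.90 (limma adjusted p = 0.0223) at 18 µg, where the call was lost under 9 of 36 alternatives. Its other probe was not expressed. Hspb11, a small protein of cilia despite its name, changed by -0.68 (limma adjusted p = 0.00357). Serpinh1, the collagen chaperone HSP47 and a target of HSF1, changed by -1.04 (limma adjusted p = 0.0237). None of the 14 genes of the TRiC chaperonin and prefoldin was called at any dose in limma. Of all expressed genes, 2.08%, 0.39% and 6.87% were called at 18, 54 and 162 µg. Among 10 mitochondrial chaperones and proteases Dnajc19 was called higher (0.64, limma adjusted p = 0.0282), but its other probe gave -0.19. The calls of Hspa4, Dnajc19 and Serpinh1 at 162 µg were lost under 25, 14 and 11 of 36 alternatives.

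**Figure D4:**
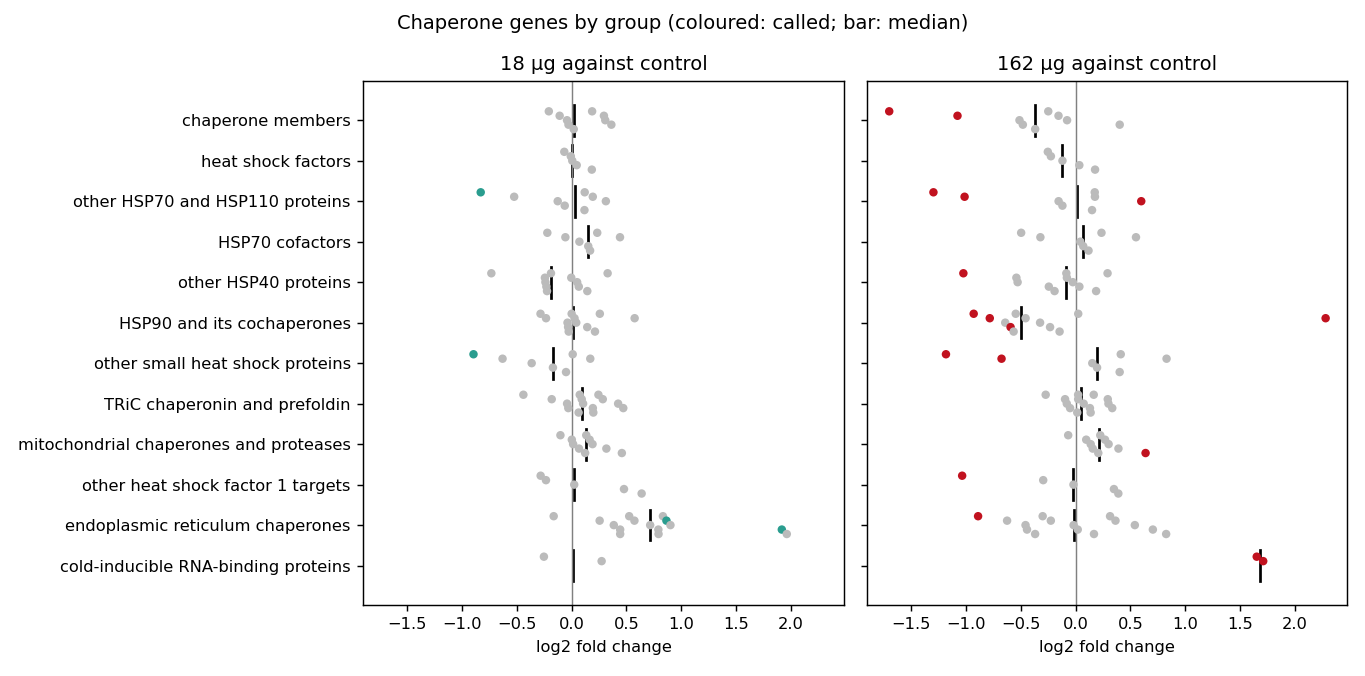
Log2 fold change of each expressed gene of the members and of the chaperone lists at 18 and 162 µg against the shared controls, on the brightest probe. Coloured points are called, grey points are not called and vertical bars are list medians. The endoplasmic reticulum list has a median of 0.72 at 18 µg and of -0.02 at 162 µg, and both cold-inducible genes are called higher at 162 µg.

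Chaperones of the endoplasmic reticulum (ER), which are governed by the unfolded protein response rather than by HSF1, were placed beside the members. At 18 µg, 2.08% of all expressed genes were called in either direction. Of 15 expressed ER genes, 2 were called higher at 18 µg, namely Sdf2l1 (1.92, limma adjusted p = 0.0423) and Hyou1 (0.87, limma adjusted p = 0.0345), and the median was 0.72. These calls were lost under 19 and 12 of 36 alternatives. The median was 0.30 at 54 µg and -0.02 at 162 µg, where only Hsp90b1, the HSP90 of the ER, was called (-0.89, limma adjusted p = 0.048), a call lost under 25 of 36 alternatives. Between 162 and 18 µg, 6 of the 15 were called lower, with a median of -0.98, while 1.65% of all expressed genes were called lower. Hspa5, the HSP70 of the ER and chosen here after its values were seen, was among them (-1.20, limma adjusted p = 0.0168).

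Cirbp and Rbm3 are RNA-binding proteins whose transcripts are known to rise in mild cold and to fall in heat, and they were listed for that reason. Cirbp had log2 ratios between -0.42 and 0.69 in controls and between 1.13 and 2.11 at 162 µg, and Rbm3 between -1.83 and -0.99 and between 0.05 and 0.69. Both were above all controls in 6 of 6 lungs, a full separation on the higher side that was found for 3.69% of expressed genes. The changes were 3.15-fold (1.65, limma adjusted p = 0.00451) and 3.28-fold (1.71, limma adjusted p = 0.00073). Both calls were lost with median centring and without normalization. A further probe of Rbm3 was called higher as well and another gave -0.27. At 54 µg, Cirbp was 0.98, 1.48, 0.86 and 0.75 in replicates 2 to 5 and -0.51 in replicate 1. Rbm3 was -0.13, 0.33, 0.08 and 0.30 in those lungs and -1.32 in replicate 1, within the range of the controls. The lung with the highest member mean at 54 µg was the one with the lowest Cirbp and Rbm3 of its group. Its level of Saa3, an acute phase gene raised after exposure and chosen here after its values were seen, was 1.85. The other lungs at 54 µg lay between 0.30 and 2.95, and the 4 controls with a value between -4.18 and -1.93. These are values of 1 lung, and any part of temperature or of the delivered dose in them was not tested. A part of temperature in the group values of Cirbp, Rbm3 and the members was not tested either.

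Marker lists of other cell types were read in the same lungs. At 18, 54 and 162 µg the median log2 fold change was -0.83, -0.29 and -0.87 for ciliated cells, 0.38, -0.52 and -0.74 for B cells, 0.46, 0.47 and 0.70 for alveolar macrophages and 0.09, 0.23 and 0.45 for neutrophils. Over all expressed genes, 3.53% were called lower and 3.34% higher at 162 µg. At that dose 3 of 7 markers of ciliated cells were called lower. The summed linear level of the 7 lay between 0.298 and 0.855 of the control mean, against 0.805 to 1.12 in controls. Of 4 B cell markers 2 were called lower, with a summed level between 0.239 and 0.793, against 0.744 to 1.39 in controls. Of 6 alveolar macrophage markers 1 was called higher, with a summed level between 1.41 and 2.32, against 0.840 to 1.29. Of 6 neutrophil markers 0 were called, and their summed level lay between 0.742 and 2.83, against 0.479 to 2.70. Of these 4 lists every marker but Ly6g was expressed above background, and their part in the values of the chaperone genes was not tested. Lists for eosinophils, club cells, type II and type I alveolar cells, endothelium, smooth muscle, cardiac muscle and T cells were read too. At 162 µg, 1 of 2 club markers was called lower (list median -0.68) and 1 of 4 type I markers higher (list median 0.22). In the other lists just named, 0 markers were called at that dose. The cardiac muscle median was -0.62, 0.69 and 0.46 at 18, 54 and 162 µg. Their part in the chaperone values was not tested either. In bulk lung, fewer cells of a type and less RNA per cell cannot be told apart.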

How the data were processed

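The authors deposited scanner intensity values: for every spot, the median pixel signal of both channels, not corrected for background (per the file headers, from version 10.7.3.1 of Feature Extraction). Normalized log2 ratios were deposited too, with no statement of the normalization, and served as an alternative. Outlier spots flagged by the scanner software were dropped. Loess (span 0.3) was applied to the log2 ratio of Cy5 (lung) over Cy3 (reference) of each array, and replicate spots were summarised by their median, giving 55681 probes. To count as expressed, a probe needed a Cy5 signal above the negative controls (308 spots, mean plus 3 standard deviations after 5% trimming) on 80% or more of the arrays in some group. Where a gene had several probes, the brightest on average was used.

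The package limma 3.58.1 (R 4.3.3) fitted dose and slide as fixed effects to all 22 arrays, which left 12 residual degrees of freedom over the 7 slides. The methods of the study fit the same terms with MAANOVA, for which limma stands here. The fit was tested on simulated data. Pairing by replicate number was checked over 31 pairs of arrays that share a number. The correlation of deviations from the group means had a median of 0.17 (range -0.17 to 0.62), with 20 over 0.1. Slide was not taken out of these deviations, and the pair with 0.62 (replicate 3 at 18 and 162 µg) shared a slide. The check therefore does not settle whether the numbers pair the mice. They were not taken to pair them in the main fit, and a replicate block was run as an alternative.

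Samples were grouped by the dose in their labels. The members and gene lists were chosen with earlier results of these data known. Named genes are the members, Hsf1 and Hsf2, up to 4 genes of each list called at a dose with the largest changes at 162 µg, and the 6 other genes most like the mean of the members. Alternatives were other background corrections, normalizations, slide terms, filters, thresholds and probe rules, and leaving out each mouse. Promoter sequences are from RefSeq (GRCm38). No per-sample columns beyond those of the 22 arrays were used.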

Additional observations from a re-analysis of the deposited data

Results flagged for a closer look

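In 35 combinations of member and dose group with 4 or more lungs, Dixon's gap test marked 3 lungs that lay far from the others of their group, where chance marks about 1 in 20 such groups. Hspa8 had a log2 ratio of 0.0973 in 18 µg replicate 6, below the other 5 lungs of that group. Hsp90aa1 had 1.2021 in 54 µg replicate 1, where the other 4 lungs lay between -0.59 and -0.29. Hspd1 had -0.3835 in 18 µg replicate 4, above the other 5 lungs.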

How the results depend on the processing

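The number of members called at 18 µg, at 54 µg, between 162 and 54 µg and between 54 and 18 µg was 0 under every alternative run. The number called at 162 µg (2 as reported) ranged from 1 to 2 with single mice left out. It was 1 with median centring, 0 without normalization, 1 with the Cy5 channel alone and 0 with the replicate block and slide together. Between 162 and 18 µg (4 as reported) it ranged from 2 to 4 with single mice left out. It was 0 with median centring, 0 without normalization, 1 with the Cy5 channel alone, 2 with the deposited log2 table, 1 with the replicate block and slide together and 2 with the median over the probes of a gene. The remaining 11 alternatives for 162 µg and 9 for 162 against 18 µg stayed within 1.5 times the reported count.

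Hsph1 at 162 µg ranged from -2.02 to -1.37 and Hsp90aa1 from -1.32 to -0.72 over the alternatives that kept all mice, with calls lost in 2 and 4 of 15. The replicate block with slide, where the numbers were not taken to pair the mice, was among both and gave -1.44 for Hsph1 (limma adjusted p = 0.0842), -0.91 for Hsp90aa1 (limma adjusted p = 0.192) and 7 calls in the wider chaperone network at 162 µg. With limma fitted to the 162 µg and control arrays alone, Hspa8 at 162 µg was called (-0.66). Estimates that were not called and lay near 0 crossed it under some alternatives: Hspb1 at 18 µg and at 54 µg under 11 each, and Hspa1a at 54 µg under 14. Median centring moved the median of all expressed genes to -0.26 at 18 µg and -0.18 at 162 µg. Without normalization it moved to -0.42, 0.13 and -0.21 at 18, 54 and 162 µg. Relative to that shift the members' median at 162 µg was -0.32 and -0.44, against -0.36 as reported. The calls of Cirbp, Rbm3 and Hsp90ab1 at 162 µg were lost under both. The cause of these losses was not tested. With 5 or 6 mice a group and a median Cy5 signal at most 2.50 times the local background, changes of dim genes are held less firmly than those of bright ones.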
